A study of Homo sapiens with 12 samples.

Results

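HK-2 cells treated with a low dose of Nnm for 48 h were compared with cells given the vehicle control for the same time. HK-2 is an immortalised line of human renal proximal tubular epithelial cells, and Nnm is 1 of 9 compounds in a survey of kidney toxicity signatures. The groups were taken from the sample titles: 3 Nnm arrays and 3 control arrays, 6 of the 12 arrays of the series, joined into 3 pairs by the biological replicate number. The other 6 arrays hold the same contrast at 24 h. All groups grew in a hormonally defined medium with 5 mM glucose, EGF, hydrocortisone, insulin, transferrin and selenite, and were treated at about 90% confluency, 24 h after seeding. The line is transformed, and the labels give no dose beyond "low". The replicates are labelled as biological. The p-values measure the spread among these cultures alone, after shifts shared by arrays of the same replicate number are taken out.

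The arrays cover 54675 probe sets, and values are log2 expression, so 1 unit is a doubling. Between 40.5% and 40.8% of probe sets were above a log2 of 4 on the 48 h arrays, and 10907 genes were tested. Of 12 epithelial marker genes 9 were above 4 on all 6 arrays, with a mean level of 8.06 to 8.28 in control and 8.04 to 8.29 in Nnm arrays. Of 9 defining proximal tubule markers on the array, DPP4 alone was above 4, while LRP2, CUBN, AQP1, GGT1, ANPEP, MME, SLC34A1 and SLC5A2 were below it on all 6 arrays. No leukocyte marker (0 of 6) and no endothelial marker (0 of 8) was above 4 on all 6 arrays. For fibroblast markers it was 5 of 12, with mean levels of 5.49 to 5.57 in control and 5.41 to 5.54 in Nnm arrays. For podocyte markers it was 4 of 6, and for distal nephron and collecting duct markers 3 of 13. The 5′ minus 3′ signal of ACTB, a measure of RNA integrity, lay between -1.09 and -1.17 on all replicate 2 arrays and between -0.74 and -0.86 on the others, in every group alike. These are bulk samples, in which fewer cells of a type and less RNA per cell cannot be told apart.

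As background, proximal tubule cells are rich in mitochondria, draw most of their energy from oxidation of fatty acids and other fuels, and can make glucose. TXNIP and ARRDC4 are alpha-arrestins that lower glucose uptake. Their genes are classic targets of MondoA (gene MLXIP) and its relative ChREBP, factors that sense sugar phosphates and bind, with the partner MLX, to paired E-box-like sequences. Genes of mitosis are transcribed late in the cell cycle, and many carry a short promoter motif called CHR, read by the DREAM complex and by FOXM1 with B-MYB.

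A gene is called here when its adjusted p was under 0.05 in limma with the replicate number as a block, fitted to all 12 arrays, with Benjamini-Hochberg adjustment over all 10907 genes. At 48 h 3515 genes were called (32.2%), 2023 of them higher in Nnm (18.5% of genes tested) and 1492 lower (13.7%). Most changes were small: 1322 called genes moved by less than 0.5 log2, 1676 by 0.5 to 1 and 517 by more than 1, of which 337 were higher and 180 lower. The median change of all genes was 0.019, with quartiles of -0.222 and 0.295. The 3 Nnm values lay wholly outside the 3 control values in 3940 genes (36.1%). Without the replicate block 1504 genes were called (13.8%), all of them among the 3515. Leaving out Nnm replicate 1 or 3 or control replicate 1 or 3 of 48 h lowered the count to 1316, 1406, 1323 and 1455.

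All 3 pairs moved the same way in 3495 of the 3515 called genes, but not by the same amount. The calls were made from these same pairs, so the shared direction is no separate result. Pair 2 gave the smallest of the 3 changes in 2751 called genes, against 361 for pair 1 and 403 for pair 3. In pairs 1, 2 and 3, the median change of the genes called higher was 0.758, 0.39 and 0.664, and that of the genes called lower was -0.657, -0.322 and -0.647. Pair 2 is also the pair whose 2 arrays had the lower ACTB 5′ signal, and the part of that in the smaller change was not tested. Of 1762 called genes with more than 1 kept probe set, the second brightest moved in the direction of the call in 1597 (90.6%).

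**Figure D1:**
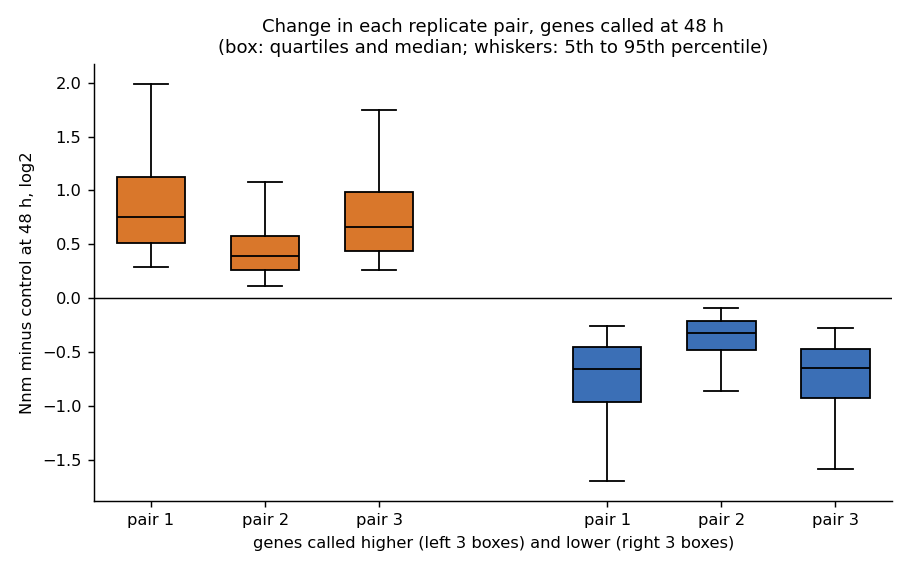
Change in log2 expression (Nnm minus control at 48 h) in each of the 3 replicate pairs, for the 2023 genes called higher and the 1492 called lower; boxes are quartiles with the median, whiskers the 5th to 95th percentile. The median of pair 2 was 0.39 for higher and -0.322 for lower genes, nearer to 0 than those of pairs 1 and 3.

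The change in TXNIP was among the greatest on the array, and it came with that of other glucose-sensing genes. TXNIP read 4.25, 6.70 and 7.14 on control arrays 1, 2 and 3 and 12.54, 11.74 and 12.19 on Nnm arrays 1, 2 and 3, a change of 6.13 (SE 0.60, adjusted p = 0.00114). The Nnm values lay within 1 unit of each other, while control replicate 1 was well below the other controls. The related ARRDC4 read 2.37, 2.89 and 2.39 in control and 5.43, 4.28 and 5.32 in Nnm arrays. All its control values were under the filter level of 4, so that it passed through the Nnm arrays, and its values are given as a description. ARRDC3, another alpha-arrestin, rose by 1.96 (SE 0.21, adjusted p = 0.00141), and MLXIP itself by 1.04 (SE 0.20, adjusted p = 0.00671). FASN, the fatty acid synthase that ChREBP drives in liver, fell by 1.22 (SE 0.16, adjusted p = 0.00274). Of the 11 tested genes of this list, 6 were higher and 2 lower, with a median of 0.261, ARRDC4 being 1 of the 6.

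The windows around the start sites of TXNIP and ARRDC4 are shown because both genes rose and both are textbook targets of the same factors. The RefSeq windows run from 250 bases before to 50 bases after the start site in GRCh38.p14, and 9020 of the 10907 genes tested have one. TXNIP lies at chr1:145996530-145996829 (minus strand) and ARRDC4 at chr15:97960453-97960752 (plus strand). Capitals mark the letters CACGTG or the spaced pair, which is CACGNG, any 5 bases and CACGNG again, where N is any base, searched on both strands; a CACGTG may be part of the spaced pair. The spaced letters were written with the known TXNIP element in mind.
TXNIP: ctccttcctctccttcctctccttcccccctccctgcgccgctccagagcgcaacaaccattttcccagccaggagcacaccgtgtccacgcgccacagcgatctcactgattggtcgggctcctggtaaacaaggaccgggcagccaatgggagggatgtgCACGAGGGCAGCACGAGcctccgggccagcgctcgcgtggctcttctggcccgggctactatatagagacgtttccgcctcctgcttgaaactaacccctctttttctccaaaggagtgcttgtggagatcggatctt
ARRDC4: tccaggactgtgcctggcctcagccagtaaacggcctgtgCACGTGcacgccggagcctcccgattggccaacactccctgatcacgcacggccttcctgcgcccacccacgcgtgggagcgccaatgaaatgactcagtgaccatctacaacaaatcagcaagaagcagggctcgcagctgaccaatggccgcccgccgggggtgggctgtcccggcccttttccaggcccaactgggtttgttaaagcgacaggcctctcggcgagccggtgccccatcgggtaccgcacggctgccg
In TXNIP the spaced pair began at position -88 from the start site. It was present in 20 of 35116 promoter windows (0.057%) and in 15 of the 9020 tested genes (0.166%). In ARRDC4 a CACGTG began at -210. CACGTG was present in 4 of 9 windows of the glucose-sensing list (44.4%), in 10.7% of the tested genes, in 7.26% of all windows and in 8.41% of the 1676 genes called higher that have a window. The list was written as targets of factors that bind such letters, so its larger share is no result of these data.

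The genes with the smallest p among those higher in Nnm were spread over unlike roles. CCL28, a chemokine of epithelia, read 6.00, 5.86 and 6.13 in control and 8.0, 7.39 and 7.70 in Nnm arrays, a rise of 1.70 (SE 0.11, adjusted p = 0.000338). PCK1, the cytosolic enzyme that commits carbon to glucose synthesis in the proximal tubule, read 2.96, 3.26 and 3.28 in control and 5.27, 5.02 and 5.55 in Nnm arrays, all controls lying under the filter level of 4, so that no exact change is given. SRD5A1, a steroid 5-alpha-reductase, read 8.12, 7.78 and 7.90 in control and 9.64, 8.86 and 9.25 in Nnm arrays (1.32, SE 0.10, adjusted p = 0.00054). The genes of this paragraph were picked by rule among those whose lowest Nnm value stood above the highest control value. That gap is thus no added result. ELMOD1, a regulator of ARL GTPases, rose by 2.16 (SE 0.16), SERPINA6, which encodes corticosteroid-binding globulin, by 2.15 (SE 0.17), and CABLES2, an adaptor of cyclin-dependent kinases, by 1.34 (SE 0.11), each with an adjusted p of 0.00054 or less. FPGT, an enzyme of fucose salvage, rose by 1.61.

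There were 6 genes that went from below 4 on all 3 control arrays to a Nnm mean of at least 6, and 0 that went the other way. SLC16A14, a monocarboxylate transporter family member, read 2.34, 2.38 and 2.48 in control and 9.27, 7.24 and 9.36 in Nnm arrays. SLC16A9, DHRS2, a short-chain dehydrogenase, and NEGR1, a neuronal adhesion protein, had the same shape, with replicate 2 the lowest Nnm array in each. In TPPP, which promotes tubulin assembly, the Nnm arrays read 8.39, 2.84 and 7.08 against 2.81, 2.60 and 2.61 in control. In DUSP15, a protein phosphatase, they read 8.12, 3.76 and 7.29 against 3.73, 3.71 and 3.72. Both genes were thus near the control level on Nnm array 2. Neither TPPP (adjusted p = 0.143) nor DUSP15 (adjusted p = 0.103) was called without the replicate block, and leaving out single arrays ended the call of TPPP in 8 of 12 and of DUSP15 in 4 of 12 cases.

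Among genes lower in Nnm, ENDOG, the mitochondrial endonuclease G, read 8.08, 8.0 and 8.11 in control and 6.37, 6.82 and 6.66 in Nnm arrays, a change of -1.45 (SE 0.14, adjusted p = 0.00106). BCAT1, the cytosolic branched-chain amino acid transaminase, read 7.55, 7.59 and 8.31 in control and 5.94, 6.14 and 7.02 in Nnm arrays (-1.45, SE 0.10, adjusted p = 0.000338). NOL3, an inhibitor of cell death, read 8.64, 8.34 and 8.61 in control and 7.66, 7.43 and 7.61 in Nnm arrays (-0.96, SE 0.08, adjusted p = 0.000678). The genes of this paragraph were likewise picked by rule among those without overlap between the groups. In BCAT1 replicate 3 was the highest array of both groups. Lower too were IGFN1, a muscle immunoglobulin protein (-1.51), PXDC1 (-0.90) and IPO4, a nuclear import receptor (-1.12), with adjusted p from 0.00054 to 0.0014.

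**Figure D2:**
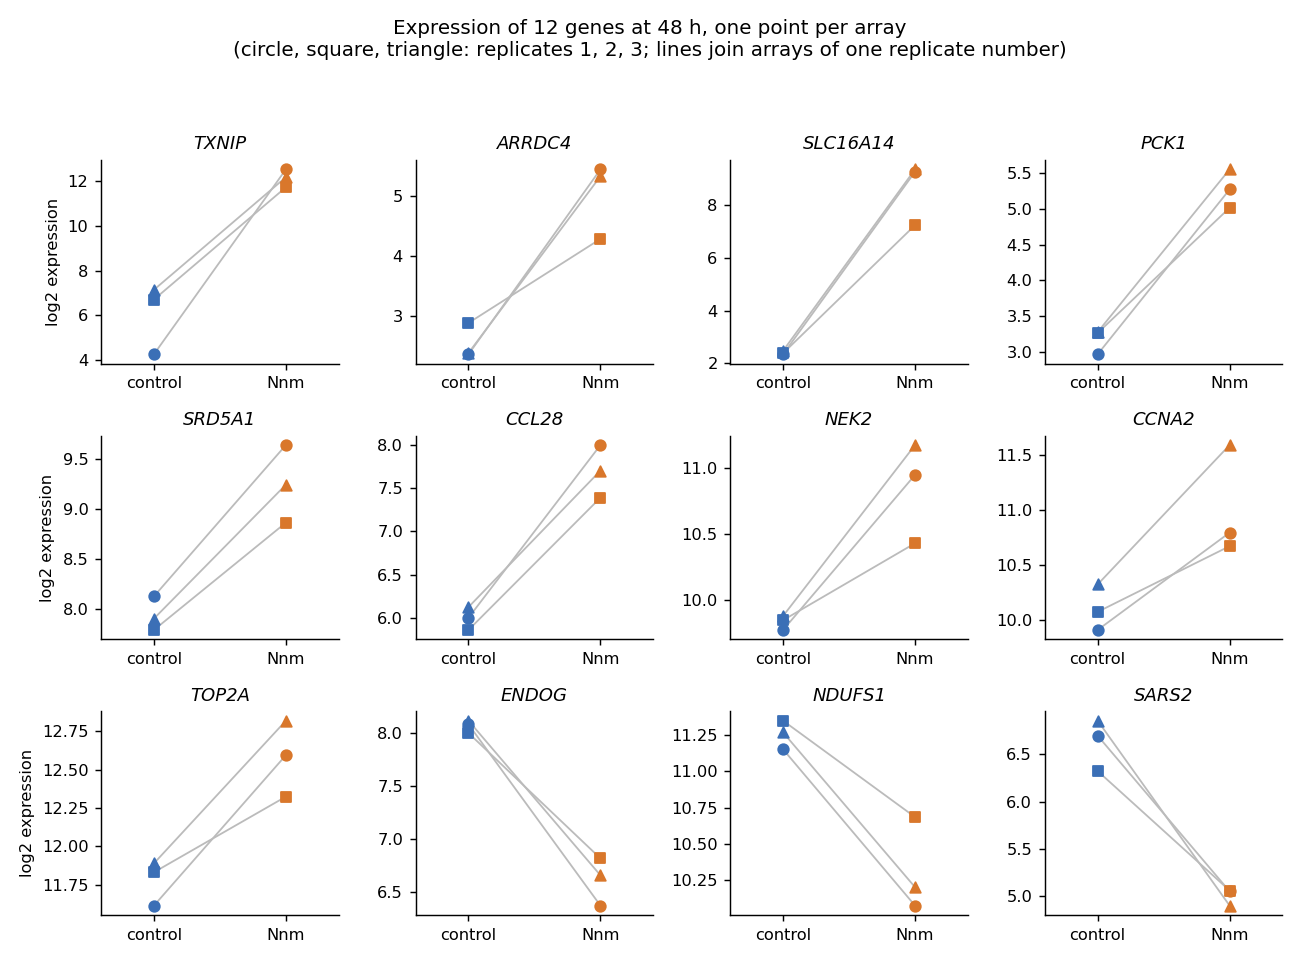
Log2 expression of 12 genes on the 3 control and 3 Nnm arrays at 48 h; marker shapes are replicate numbers and lines join arrays of one number. In each of the 12 genes the Nnm values lie on one side of the control values, which was a condition of the choice for SLC16A14, PCK1, SRD5A1, CCL28 and ENDOG. Nnm array 2 (square) shows the smallest distance to its control in most of the genes, as in SLC16A14 (7.24 against 9.27 and 9.36).

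Genes of mitosis stood higher in Nnm at 48 h. Of 55 tested members of the cell cycle and mitosis list, 31 were higher (56.4%) and 0 lower, and 54 of the 55 changes were above 0. The median was 0.461, against 0.019 for all genes, and it was 0.503, 0.29 and 0.603 in pairs 1, 2 and 3. CCNA2 encodes cyclin A2, which drives S phase and mitotic entry. It read 9.91, 10.08 and 10.33 in control and 10.80, 10.67 and 11.59 in Nnm arrays (0.92, SE 0.15, adjusted p = 0.00441). NEK2, a centrosome kinase, read 9.78, 9.85 and 9.88 in control and 10.95, 10.43 and 11.18 in Nnm arrays (1.02, SE 0.12, adjusted p = 0.00229). TOP2A, the topoisomerase that untangles sister chromatids, read 11.61, 11.83 and 11.89 in control and 12.60, 12.32 and 12.82 in Nnm arrays (0.80, SE 0.12, adjusted p = 0.00366). The groups did not overlap in any of the 3.

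Members with other roles in division moved alike. KNL1, a scaffold of the kinetochore, rose by 0.91 (SE 0.15), CENPA, the histone variant of centromeres, by 0.81, AURKB, a kinase of the chromosomal passenger complex, by 0.78, and TTK, a spindle checkpoint kinase, by 0.67. FOXM1, the transcription factor named above, rose by 0.79 (adjusted p = 0.00377), a call that was lost without the block (adjusted p = 0.0734). CENPA and AURKB, like MKI67, PLK1, AURKA and PRC1 below, were picked after their values were seen. The proliferation marker MKI67 had a change of 0.42 that missed the threshold (adjusted p = 0.0781), and the mitotic kinases PLK1 (0.04) and AURKA (0.01) and the spindle midzone protein PRC1 (-0.12) were not called. Without the replicate block 12 of the 55 were called. Leaving out 1 array gave 13 to 44: it was 13 without Nnm replicate 1, Nnm replicate 3 or control replicate 1 of 48 h, 17 without control replicate 3 and 20 without control replicate 2.

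The same 55 genes were then read at 24 h. The 24 h contrast uses other arrays, and there 1 of the 55 was higher and 14 were lower. The median was -0.241, against 0.011 for all genes at 24 h. Of all genes 38.8% were called at 24 h, counting both directions, a larger share than in the list. The control arrays of 48 h, which enter both this contrast and the one above, were lower than the control arrays of 24 h in 30 of the 55 genes and higher in 0 (8.47% of all genes were called in that comparison, 422 higher and 502 lower). The median of that control change was -0.592. Between the Nnm arrays of 48 h and 24 h, 0 of the 55 were called in either direction, with a median of 0.116 (2.29% of all genes were called). CCNA2 averaged 11.004 ± 0.22 in control and 10.86 ± 0.09 in Nnm at 24 h, then 10.11 ± 0.21 in control and 11.02 ± 0.50 in Nnm at 48 h (SD, n = 3 each). The 48 h control mean was the lowest of the 4 group means, as it was for TOP2A, with 12.13 ± 0.16 and 12.32 ± 0.15 at 24 h against 11.78 ± 0.15 and 12.58 ± 0.25 at 48 h in control and Nnm.

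The change at 48 h minus the change at 24 h had a median of 0.693 over the 55 genes. Of these differences 0 passed the threshold after adjustment over all genes in limma, and 50 had an unadjusted p under 0.05, all of them with the higher change at 48 h. In that direction 867 of the 10907 genes tested had such a p. Nnm replicate 2 at 24 h was the highest of the 3 Nnm arrays of that time over the list. Without that array 39 of the 55 differences were called, without both Nnm replicate 2 arrays 49, and with array weights 51. Without Nnm replicate 2 of 48 h it was 3. Under each other alternative that tested the difference it was 0, including no block, the block within each time and leaving out any other array. Why these settings differ was not tested.

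**Figure D3:**
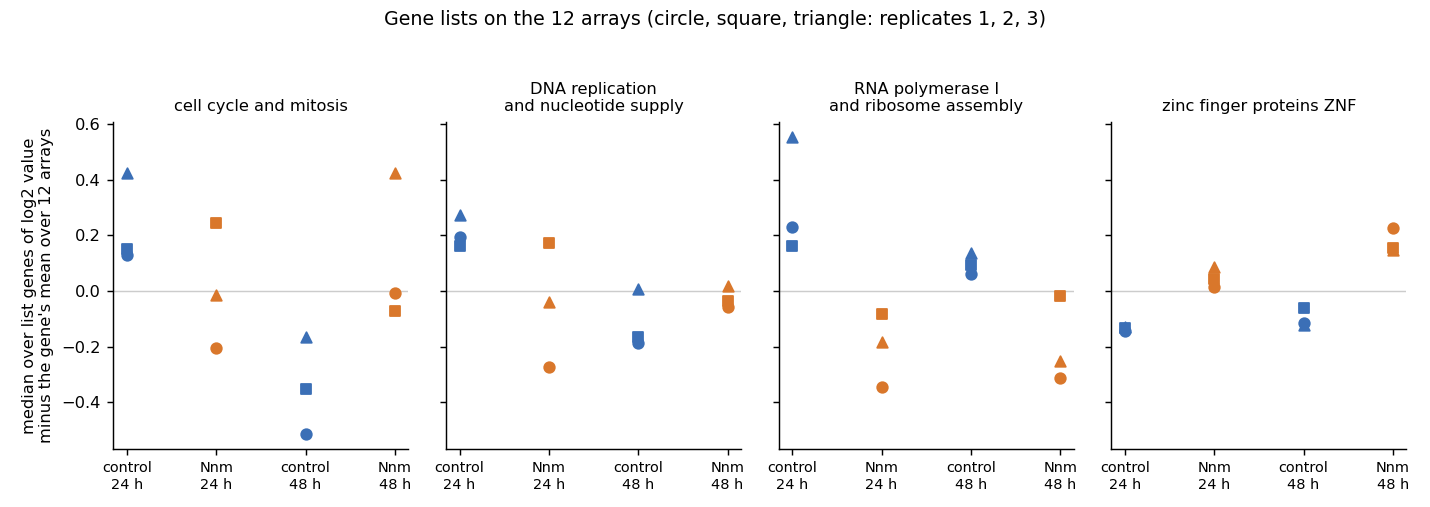
Median over the genes of 4 lists of the log2 value minus the gene's mean over the 12 arrays, 1 point per array (shape, replicate number), for control and Nnm at 24 h and 48 h. For cell cycle and mitosis the control arrays fall from between 0.129 and 0.423 at 24 h to between -0.513 and -0.164 at 48 h, while the Nnm arrays at 48 h lie between -0.073 and 0.424.

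The promoters of the mitotic list are shown for a pair of its called members, since many genes of mitosis are known to carry the CHR letters. The CHR letters TTTGAA were present on either strand in 33 of the 46 members with a window (71.7%), against 9.53% of the tested genes and 15.2% of all windows. CCAAT, searched on both strands, was also present in 33 of 46 (71.7%), against 37.3% and 34.6%. The list was written as genes of mitosis, many of which are known to carry CHR. Its larger share of TTTGAA is thus no result of these data. TOP2A lies at chr17:40417847-40418146 (minus strand) and CENPA at chr2:26785806-26786105 (plus strand). Capitals mark TTTGAA or its reverse TTCAAA, and CCAAT or its reverse ATTGG.
TOP2A: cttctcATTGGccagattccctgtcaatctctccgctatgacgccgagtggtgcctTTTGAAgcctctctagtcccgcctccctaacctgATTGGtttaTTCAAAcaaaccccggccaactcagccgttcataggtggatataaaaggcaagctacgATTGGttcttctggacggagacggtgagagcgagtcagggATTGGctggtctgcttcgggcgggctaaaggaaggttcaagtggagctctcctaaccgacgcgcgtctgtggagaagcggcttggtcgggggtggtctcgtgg
CENPA: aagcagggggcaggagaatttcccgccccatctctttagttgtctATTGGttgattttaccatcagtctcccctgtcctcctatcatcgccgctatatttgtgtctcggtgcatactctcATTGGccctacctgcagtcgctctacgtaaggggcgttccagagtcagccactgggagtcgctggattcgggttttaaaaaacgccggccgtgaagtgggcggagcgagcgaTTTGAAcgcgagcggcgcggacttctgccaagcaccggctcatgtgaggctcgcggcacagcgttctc
Within the list the letters did not go with the larger change. Of the 33 members with TTTGAA, 15 were higher (median 0.411), and of the 13 without it, 11 were higher (median 0.621). Among 827 tested genes outside the list with TTTGAA in the window, 23.7% were higher and 11% lower with a median of 0.098, against 18.6% and 13.6% with a median of 0.017 for all genes with a window.

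Genes that act before mitosis were in separate lists. Of 58 DNA replication and nucleotide supply genes, 14 were higher (24.1%) and 5 lower at 48 h with a median of 0.091. MCM10, a replication initiation factor, read 6.57, 6.83 and 7.59 in control and 8.12, 7.67 and 8.53 in Nnm arrays (1.11, SE 0.22, adjusted p = 0.00872), and no Nnm value overlapped a control value. Of 55 DNA repair genes, 16 were higher (29.1%) and 0 lower, among them XRCC4 of end joining (0.64) and FANCG of the Fanconi anaemia complex (0.71). Among 23 G1 cyclins and cyclin-dependent kinase inhibitors, 5 were higher and 8 lower (34.8%): E2F7, a repressor of S phase genes, rose by 1.15 (SE 0.23, adjusted p = 0.00807), the inhibitor CDKN1B rose by 0.83 (SE 0.13), and CCND2, cyclin D2, fell by 2.10 (SE 0.39). Histone genes went the other way, with 2 of 16 higher, 5 lower (31.2%) and a median of -0.349. H2AC25 read 8.65, 8.67 and 8.57 in control and 7.28, 7.28 and 6.96 in Nnm arrays (-1.45, SE 0.12, adjusted p = 0.00054), a gap many times the spread within either group. Without the block the replication list had 5 higher and 1 lower, repair 7 higher, and the G1 and histone lists 3 lower each. Leaving out Nnm replicate 1 or 3 or control replicate 1 or 3 of 48 h took replication to 1, 2, 1 and 4 higher and 1 lower each time, repair to 5, 4, 4 and 7 higher and the G1 list to 3, 4, 2 and 3 higher and 2, 2, 1 and 2 lower. Leaving out control replicate 2 left 7 replication genes higher and 5 G1 genes lower, and without Nnm replicate 3 or control replicate 1 the histone list had 3 lower. The 2 higher histone calls were lost without any 1 of the 48 h arrays other than Nnm replicate 2.

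Genes of mitochondrial energy metabolism were lower in Nnm. In the citric acid cycle 13 of 21 were lower (61.9%) and 0 higher, with a median of -0.377. In respiratory complex I 15 of 33 were lower (45.5%), 0 higher, median -0.295. In complexes III to V 21 of 32 were lower (65.6%) and 1 higher, median -0.31. SDHA, the flavoprotein shared by the cycle and complex II, read 10.66, 10.66 and 10.70 in control and 9.55, 10.21 and 9.71 in Nnm arrays (-0.85, SE 0.13, adjusted p = 0.0041). NDUFS1, an iron-sulfur subunit of complex I, read 11.15, 11.35 and 11.27 in control and 10.07, 10.68 and 10.20 in Nnm arrays (-0.94, SE 0.12, adjusted p = 0.00244). ATP5F1B, the catalytic subunit of ATP synthase, read 12.90, 12.63 and 12.89 in control and 11.69, 12.02 and 11.96 in Nnm arrays (-0.92, SE 0.12, adjusted p = 0.00241). None of these genes overlapped between groups, and in SDHA and NDUFS1 Nnm array 2 was the least changed. Also lower were IDH3B of the cycle (-0.72), UQCRC1 of complex III (-0.66) and ATP5MC1, which encodes the ATP synthase c subunit (-1.21). ATP5MC2, another gene for the same c subunit, was the 1 member of these lists called higher, at 0.44 (SE 0.08, adjusted p = 0.00628).

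Nuclear genes that build mitochondria followed. Of 75 genes of the mitochondrial ribosome, 30 were lower (40%) and 0 higher, median -0.241. Of 35 genes of import and quality control, 21 were lower (60%) and 1 higher, median -0.327, with TRAP1, a mitochondrial chaperone, at -1.03 (SE 0.13), TIMM50, a receptor of the inner membrane translocase, at -1.06 (SE 0.15) and GRPEL1, a cochaperone, at -1.05 (SE 0.15). MRPL2 of the large mitochondrial subunit fell by 1.12 (SE 0.14). Over these 5 lists together, 100 of 196 genes were lower and 2 higher. The change was called as differing between 48 h and 24 h in 0 of the 196. That test called 0.0183% of all genes, so it says little about these. NRF1, a factor for nuclear genes of the respiratory chain, itself rose by 0.88 (SE 0.14, adjusted p = 0.00402; 2 of its 4 probe sets moved in that direction), and its partner in that role GABPA by 0.80 (SE 0.15, adjusted p = 0.00766). Fatty acid oxidation had 9 of 22 lower (40.9%) and 1 higher. In the mitochondrial genome itself 2 of 7 tested genes were lower (28.6%), with a median of -0.113 at a median level of 15.26, close to the top of the scale. They were COX3 at -0.44, whose call was lost without Nnm replicate 1 (adjusted p = 0.0507), and ND2 at -0.32, whose call was lost without any 1 of the replicate 1 and 3 arrays of 48 h (adjusted p up to 0.0686).

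Without the block, the counts of lower genes were 7 for the cycle, 8 for complex I, 9 for complexes III to V, 12 for the mitochondrial ribosome and 9 for import. The lowest counts on leaving out 1 of the replicate 1 and 3 arrays of 48 h were 7, 5, 8, 8 and 6 in the same order, with 5 for complex I under each of the 4. Fatty acid oxidation had 5 lower without the block, and 4 or 5 without any 1 of those 4 arrays.

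Machinery for making and removing proteins was split. RNA polymerase I and ribosome assembly had 28 of 81 lower (34.6%) and 2 higher, median -0.301. At 24 h 56 were lower and 2 higher, median -0.523, where 38.8% of all genes were called. In limma 0 of the 81 changes were called as differing from 24 h, against 0.0183% of all genes. An unadjusted p under 0.05 was found for 14 of these differences with the higher value at 48 h and for 0 with the lower. Over all 10907 genes it was 867 and 600. The nucleolar helicase DDX21 read 12.13, 12.15 and 12.19 in control and 11.47, 11.66 and 11.58 in Nnm arrays (-0.59, SE 0.11, adjusted p = 0.00755), with a tight control group and no overlap. WDR12 and UTP4, assembly factors of the 2 ribosomal subunits, were lower (-0.65 and -0.79). POLR1D, a subunit shared by RNA polymerases I and III, rose by 1.52 (SE 0.19, adjusted p = 0.00235), but only 1 of its 3 probe sets moved that way. The ribosomal proteins themselves had 2 of 56 higher (3.57%) and 0 lower, with a median of 0.037. RPL39L, a paralogue of RPL39, rose by 0.85 (SE 0.13), and RPL36 by 0.22 (adjusted p = 0.0431, and 0.483 without the block), a call also lost on leaving out any 1 of 10 of the 12 arrays.

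Further along, many genes of tRNA charging and protein breakdown were lower. Of 30 tRNA synthetase genes 15 were lower (50%) and 0 higher. SARS2, the mitochondrial seryl-tRNA synthetase, read 6.70, 6.32 and 6.86 in control and 5.05, 5.06 and 4.90 in Nnm arrays (-1.62, SE 0.20, adjusted p = 0.00228). The cytosolic WARS1 fell by 0.92 (SE 0.12) and IARS1 fell by 0.48 (SE 0.09). Of 43 proteasome genes 23 were lower (53.5%), among them PSMA3 of the catalytic core (-0.78, SE 0.12, adjusted p = 0.00429). The 1 higher member was PSMB9, an interferon-inducible subunit of the immunoproteasome, which read 7.69, 7.84 and 7.75 in control and 8.93, 8.61 and 9.02 in Nnm arrays (1.09, SE 0.21, adjusted p = 0.00738). Without the block the counts of lower genes were 12 for ribosome assembly, 6 for the synthetases and 4 for the proteasome, and without single replicate 1 or 3 arrays of 48 h they ranged from 6 to 8, 4 to 7 and 3 to 5.

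Lipid and sugar metabolism was read from separate lists. Of 24 genes of cholesterol synthesis and uptake 14 were lower (58.3%) and 1 higher, with a median of -0.517. LSS, which makes lanosterol, read 10.49, 10.34 and 10.52 in control and 9.52, 9.72 and 9.78 in Nnm arrays (-0.78, SE 0.12, adjusted p = 0.00416), apart from the controls on all 3 arrays. ACAT2 of the first step fell by 1.28 (SE 0.25), INSIG1, the sterol sensor partner, fell by 0.65 (SE 0.13) and STARD4, a cholesterol carrier, fell by 0.77 (SE 0.12). The higher member was MYLIP, a ubiquitin ligase that removes the LDL receptor, at 1.11 (SE 0.19, adjusted p = 0.00484). In fatty acid synthesis and desaturation 7 of 18 were lower (38.9%) and 2 higher, with a median of -0.149. PNPLA3, a lipase of lipid droplets, fell by 1.5 (SE 0.21) and ACLY, ATP citrate lyase, fell by 0.55 (SE 0.11), while SCD5, a desaturase, rose by 0.74 (SE 0.12) and ELOVL2, a fatty acid elongase, by 0.74 (adjusted p = 0.00767, and 0.0917 without the block). Of 25 glycolysis and lactate genes 11 were lower (44%) and 3 higher. PFKP, a phosphofructokinase, fell by 0.70 (SE 0.09), PGAM1 fell by 0.69 and TPI1 fell by 0.63, while PDK1, a kinase that inhibits pyruvate dehydrogenase, fell by 1.38 (SE 0.21, adjusted p = 0.00383). PFKFB3, which makes the activator of phosphofructokinase, rose by 0.63 (adjusted p = 0.00311, and 0.0826 without the block). Without the block 7 cholesterol and 6 glycolysis genes were lower. Without single replicate 1 or 3 arrays of 48 h 4 to 9 cholesterol genes were lower, and without control replicate 3 of 48 h 7 glycolysis genes. Without Nnm replicate 1, control replicate 1 or control replicate 3 of 48 h 4 fatty acid synthesis genes were lower.

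**Figure D4:**
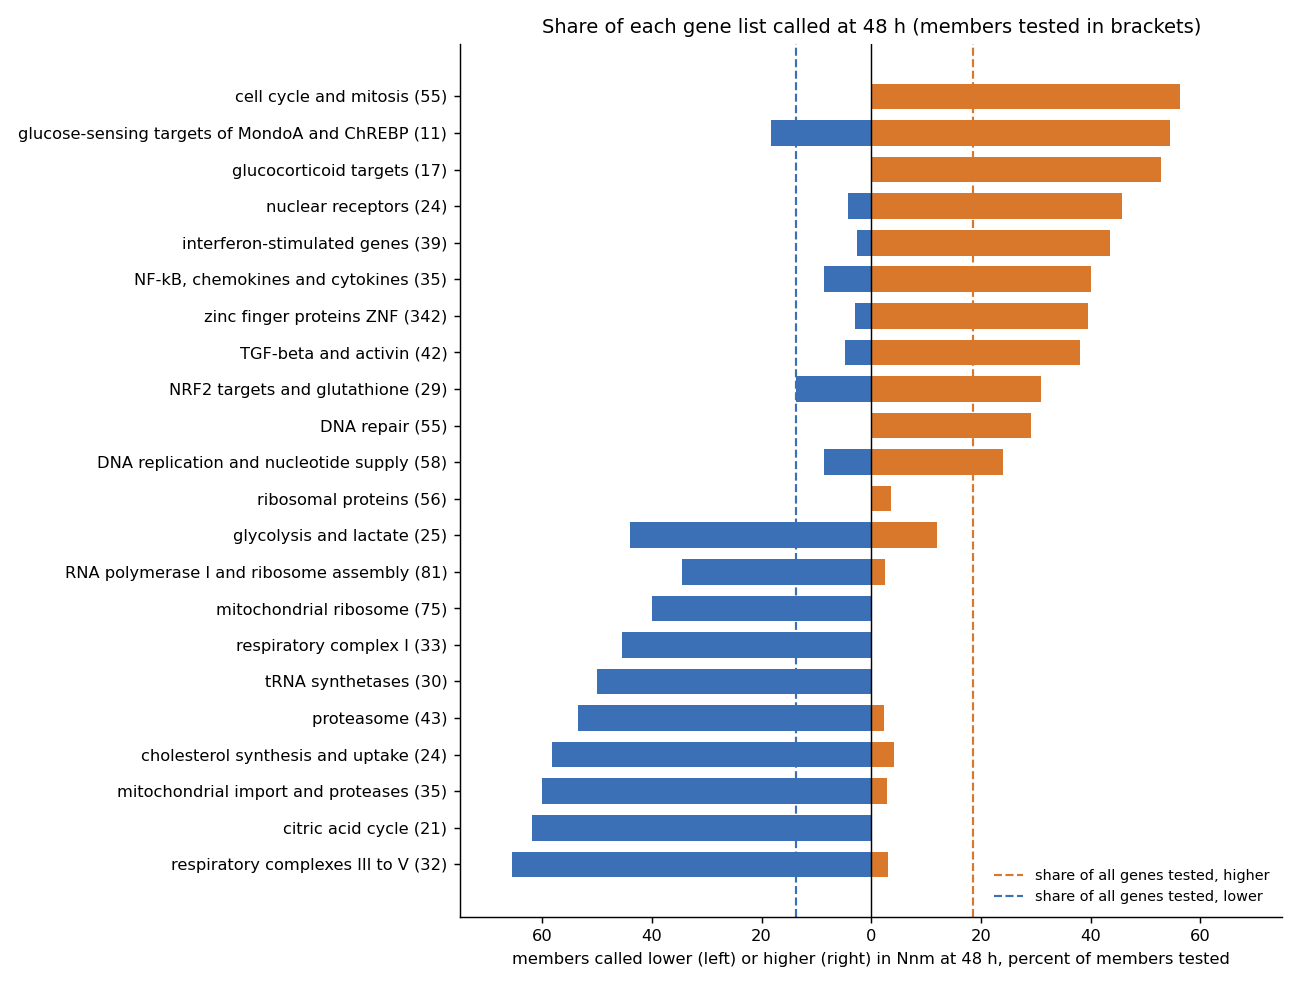
Share of the tested members of 22 gene lists called lower (left, blue) or higher (right, orange) in Nnm at 48 h; dashed lines are the shares of all genes tested, 13.7% lower and 18.5% higher. The mitotic list reaches 56.4% higher with 0 lower, and complexes III to V reach 65.6% lower.

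Zinc finger genes named ZNF, most of which encode DNA-binding repressors of the KRAB type, were higher as a family. Of 342 tested 135 were higher (39.5%) and 10 lower (2.92%), with a median of 0.273 that was 0.342, 0.23 and 0.261 in pairs 1, 2 and 3. ZNF331 read 6.58, 6.31 and 6.30 in control and 7.84, 7.52 and 7.93 in Nnm arrays (1.36, SE 0.15, adjusted p = 0.00141). ZNF415 read 7.42, 7.65 and 7.39 in control and 8.44, 8.36 and 8.50 in Nnm arrays (0.95, SE 0.10, adjusted p = 0.00157), and in both genes all Nnm arrays were above all controls. ZNF649 rose by 1.28, ZNF615 by 1.16 and ZNF141 by 1.12, the last with 1 of its 2 probe sets in that direction. Members of this family share sequence, and probe sets of close paralogues can read each other's transcripts. Without the block 90 were higher and 1 lower, and without Nnm replicate 1 or 3 or control replicate 1 or 3 of 48 h 76, 88, 80 and 83 were higher.

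The ZNF family and the mitochondrial lists were each set beside all genes of like level, since the share called differed with signal, from 16.6% of genes under a log2 of 6 to 39.6% of those between 10 and 12. Between 6 and 8, 41.5% of 147 ZNF genes were higher against 18.3% of all genes, and between 8 and 10 it was 55.8% of 95 against 21.4%. Below 6 the shares were 15.9% and 12.4%. For the 5 mitochondrial lists, 58.3% were lower between 8 and 10 against 14.8% of all genes, 46.2% against 19.7% between 10 and 12, and 55.1% against 20.7% above 12.

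**Figure D5:**
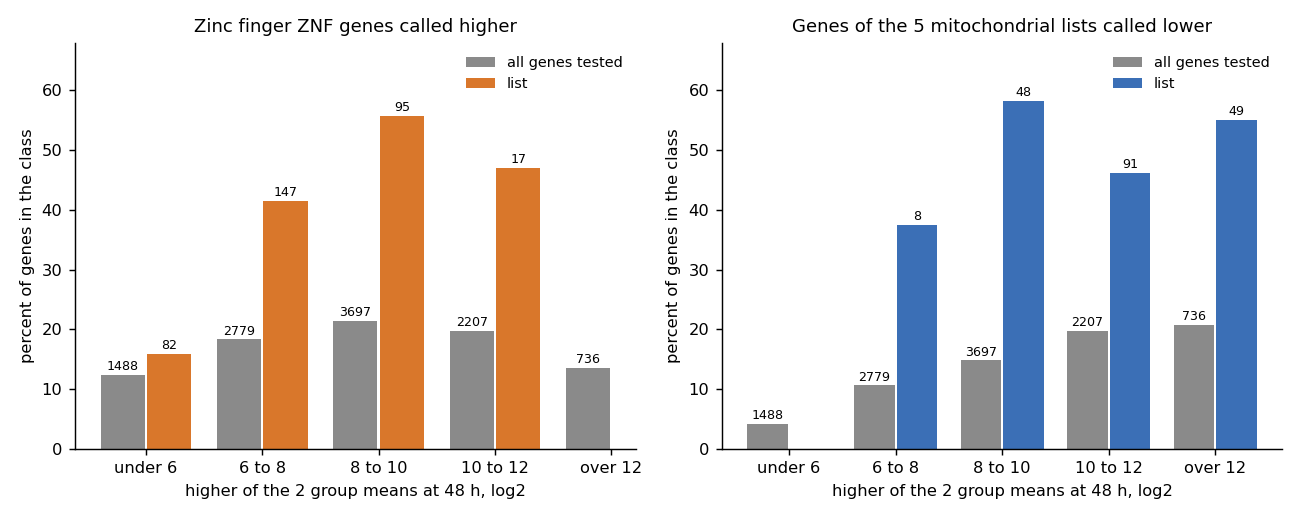
Percent of genes called higher (left, ZNF family) or lower (right, 5 mitochondrial lists) at 48 h, by the higher of the 2 group means on the log2 scale, beside all genes tested (grey); numbers over bars are genes in the class, and a class with fewer than 8 list genes has no bar. The family bar stands above the grey bar in each class drawn, by the least (15.9% against 12.4%) in ZNF genes under 6.

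Hormone and cytokine response genes were read next. Of 17 glucocorticoid targets 9 were higher (52.9%) and 0 lower, with a median of 0.562, in cells that all had hydrocortisone in the medium. PCK1, above, is counted among them with control values under 4. GLUL, glutamine synthetase, rose by 0.63 (SE 0.12, adjusted p = 0.00767), and NFKBIA, the inhibitor of NF-kB, read 10.57, 10.60 and 10.53 in control and 11.39, 11.14 and 11.83 in Nnm arrays (0.89, SE 0.14, adjusted p = 0.00439), without overlap. TSC22D3, the leucine zipper protein GILZ, rose by 0.89 (adjusted p = 0.00872, and 0.163 without the block), with control values spread from 10.38 to 11.69. Of 24 nuclear receptors 11 were higher (45.8%) and 1 lower, such as NR1D2 of the clock (0.69, SE 0.09) and HNF4G, a hepatocyte nuclear factor found in kidney (0.79, SE 0.14). Without the block 6 glucocorticoid targets and 4 nuclear receptors were higher, and leaving out 1 array lowered these counts most without Nnm replicate 1 (4 and 3), Nnm replicate 3 (5 and 6), control replicate 1 (5 and 4), control replicate 2 (8 and 7) and control replicate 3 (7 and 3) of 48 h.

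Of 39 interferon-stimulated genes 17 were higher (43.6%) and 1 lower, with a median of 0.322. IFIT1, which binds foreign RNA, read 7.83, 8.89 and 8.29 in control and 9.53, 9.28 and 9.85 in Nnm arrays (1.22, SE 0.23, adjusted p = 0.00738), and RSAD2, the antiviral protein viperin, rose by 1.46 (adjusted p = 0.00615, and 0.0764 without the block). Replicate 2 was the highest control for IFIT1 and its Nnm array the lowest, so that pair alone gave a small step. Of 35 genes of NF-kB, chemokines and cytokines 14 were higher (40%) and 3 lower. CXCL16 rose by 1.21 (SE 0.15) and IL18 by 0.78 (SE 0.14), while the adhesion molecule ICAM1 read 9.34, 9.03 and 9.56 in control and 8.41, 8.29 and 8.23 in Nnm arrays (-1.0, SE 0.15, adjusted p = 0.00364). Without the block 7 interferon and 7 NF-kB genes were higher, and without single replicate 1 or 3 arrays of 48 h 3 to 4 and 5 to 8.

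In TGF-beta and activin signalling 16 of 42 genes were higher (38.1%) and 2 lower, with a median of 0.183. ID1, ID2 and ID3, inhibitors of helix-loop-helix factors and targets of BMP signals, rose by 1.13 (SE 0.18), 0.68 (SE 0.10) and 1.4 (SE 0.23), and the receptor TGFBR2 by 0.49 (SE 0.08). TGIF1, a corepressor of SMAD proteins, rose by 0.80 (SE 0.11). In Wnt signalling 8 of 24 were higher (33.3%) and 1 lower: SHISA2, a trafficking inhibitor of Frizzled and FGF receptors, rose by 3.07 (SE 0.33), and RSPO3, an enhancer of Wnt signals, by 3.07 (SE 0.45). The lower member was the secreted DKK3, which read 13.30, 13.15 and 13.63 in control and 11.91, 11.63 and 12.75 in Nnm arrays (-1.26, SE 0.16, adjusted p = 0.00241), with replicate 3 the highest in both groups. Without the block 6 TGF-beta and 5 Wnt genes were higher, and without single replicate 1 or 3 arrays of 48 h 7 to 9 and 3 to 5.

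Stress and injury lists gave mixed counts, several of them near the shares of all genes tested, 18.5% higher and 13.7% lower. Of 29 NRF2 targets 9 were higher (31%) and 4 lower, and NQO1, a quinone reductase, rose by 1.01 (SE 0.20, adjusted p = 0.00767). Of 28 p53 targets 5 were higher (17.9%) and 7 lower (25%), with a median of 0.011. Of 33 ATF4 targets 1 was higher (3.03%) and 5 lower (15.2%). Of 21 kidney injury markers 4 were higher (19%) and 6 lower (28.6%), with changes from -3.599 to 1.428. KRT20, a keratin among the 14 lower genes with the smallest p and no overlap, is a member of this list. TIMP1, an inhibitor of matrix proteases, rose by 0.45 (SE 0.08, adjusted p = 0.00644), CLU, clusterin, by 0.58 (adjusted p = 0.00447, and 0.0612 without the block), and CHI3L1, a secreted lectin, read 8.92, 8.85 and 9.37 in control and 7.20, 6.76 and 6.74 in Nnm arrays. Of the tubule transport genes, DPP4, a brush border peptidase, read 11.60, 11.97 and 11.56 in control and 12.97, 12.88 and 12.85 in Nnm arrays (1.19, SE 0.12, adjusted p = 0.00132), and CA12, a carbonic anhydrase, rose by 2.54 (SE 0.43). Leaving out Nnm replicate 1 or 3 or control replicate 1 or 3 of 48 h took the NRF2 targets to 1, 2, 1 and 5 higher and 0, 1, 1 and 0 lower, and the p53 targets to 0, 0, 0 and 1 higher and 3, 2, 3 and 3 lower. Without control replicate 3 of 48 h 3 kidney injury markers were lower, and without the block 2 were higher and 2 lower, against 4 and 1 NRF2 targets and 2 and 3 p53 targets.

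At 24 h 4237 genes were called (38.8%). Of the 48 h calls 63.4% were called at 24 h too, and of the 24 h calls 52.6% at 48 h, which makes 2229 genes, 2209 with the same sign. The difference between the 2 changes was called for COL4A3 and NOCT, and 1467 genes (13.5%) had an unadjusted p under 0.05. COL4A3, a basement membrane collagen chain, averaged 2.75 ± 0.36 in control and 3.05 ± 0.86 in Nnm at 24 h, then 5.03 ± 0.75 in control and 2.87 ± 0.58 in Nnm at 48 h (SD, n = 3 each). NOCT, a rhythmic phosphatase of NADPH, averaged 4.49 ± 0.10 in control at 24 h and 3.46 ± 0.03, 3.53 ± 0.08 and 3.51 ± 0.07 in Nnm at 24 h, control at 48 h and Nnm at 48 h. The call of the difference was lost for both without the block (COL4A3 adjusted p = 0.696, NOCT 0.122) and on leaving out most single arrays, with an adjusted p of 0.00997 to 0.216 for each. In both genes 1 control group stands apart from the other 3 groups, whose means lie under the filter level of 4, so the differences are descriptions. H2AC25 had the same shape as COL4A3, with 7.49 ± 0.24 and 7.22 ± 0.13 at 24 h in control and Nnm and 8.63 ± 0.06 and 7.17 ± 0.18 at 48 h, and its difference of -1.19 missed the threshold (SE 0.17, adjusted p = 0.0903). In ZNF141 the Nnm group of 48 h was the one apart, at 6.31 ± 0.13 against 5.19 ± 0.12 in control and 5.25 ± 0.09 and 5.37 ± 0.13 in control and Nnm at 24 h (difference 1.0, SE 0.15, adjusted p = 0.0903).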

How the data were processed

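RNA of 12 HK-2 cultures was hybridised to Affymetrix arrays, 3 for each of Nnm and control at 24 h and 48 h. The deposited values had been made by the authors with GCRMA, per the submitters' processing notes, which name no version. The deposited values were taken as log2 from their range, and were used as deposited. Of the 54675 probe sets, 41091 were paired with 1 gene by the platform annotation, 1801 with several and 11721 with none, and 62 are controls. Symbols were matched to RefSeq GRCh38.p14 for 41037 probe sets.

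A probe set was kept where 3 or more arrays read over 4 (19832 were), and each gene was represented by its kept probe set of highest mean, giving 10907 genes. Group means with the replicate number as a block were fitted to the 12 arrays in limma 3.58.1 (R 4.3.3), and p-values were adjusted by Benjamini-Hochberg over all genes with a threshold of 0.05. The calculation was tested on simulated data. The labels give the same replicate numbers in each group, and same-numbered arrays deviated together: the correlation of residuals was 0.422, 0.407 and 0.512 for the 48 h pairs. No arrays held the same values beyond 9.14e-05 of probe sets. Precision is limited by the number of arrays.

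The gene lists and the comparison were chosen with earlier results of these data known, so list counts are descriptions beside those of all genes. Genes were named by rule: the 14 higher and 14 lower genes with the smallest p and no overlap, up to 6 per list with the smallest p, genes going from under 4 to at least 6 or back, for the change of effect with time 6 genes each way, also by p, marker genes, and the 6 brightest called genes in each direction. Alternatives were no block, a block within each time, the 48 h arrays alone, other filters, the mean of probe sets, median centring, quantile normalisation, array weights, a trended robust prior, leaving out each array, and leaving out both Nnm replicate 2 arrays. Figures were drawn with matplotlib 3.10.9 in Python 3.11.15.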

Additional observations from a re-analysis of the deposited data

Results flagged for a closer look

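COL4A3 and NOCT were the genes whose change at 48 h was called as differing from that at 24 h in limma after Benjamini-Hochberg adjustment. The difference was -2.46 for COL4A3 and 1.01 for NOCT. In both genes 3 of the 4 group means lay under a log2 of 4, the filter level, so each passed the filter through 1 control group, and the differences are given as descriptions.

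Probe sets that the annotation pairs with no gene or with several genes entered no comparison above. Of 2846 such probe sets above the filter, 511 were called at 48 h (18%), 250 higher and 261 lower in Nnm.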

How the results depend on the processing

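The number of genes called at 48 h was 3515 with the replicate block and 1504 with no replicate block. It was 1410 with the 48 h arrays alone, 2302 with no filter on dim probe sets (19775 genes tested) and 5507 with array weights. Leaving out 1 array gave 1316 to 4016 called genes. The share of calls that were higher ranged from 53.1% without both Nnm replicate 2 arrays to 64.7% without control replicate 3 of 48 h, against 57.6%. For the difference between 48 h and 24 h, 2 genes were called in limma. There were 0 with no replicate block (698 at an unadjusted p under 0.05), with the block within each time (1247), with a log2 of 6 as the filter (1371) and with the trended robust prior (1541), and 1 with median centring. Array weights gave 745 and leaving out both Nnm replicate 2 arrays 944, and leaving out 1 array 0 to 500. The cause was not tested. Of 118 genes checked, nearly all of them described in the text, 109 were called. Of these 94 were called under every alternative that tested them and 104 without each array in turn. The 118 include MYB and ATF4, for which the text gives no value and which were not called. With a log2 of 6 as the filter 104 of the 109 were tested. No alternative moved the median change of all genes by over 0.1.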
